A study of Rattus norvegicus with 22 samples.

Results

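The renal endothelium genes described here are 10 genes that mark the cells lining blood vessels, namely Pecam1, Cdh5, Kdr, Flt1, Tek, Tie1, Emcn, Plvap, Aplnr and Vwf. The list was chosen by its TPM values (length-scaled transcript levels) across the treatments and against Slc34a1, the sodium phosphate cotransporter of the proximal tubule. The treatment contrasts and the relation with Slc34a1 are therefore given as a description. All 10 were among the 17334 genes listed for each rat, and all 10 were among the 12867 genes that passed the filter on low counts.

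The study asked whether repeated human stem cell treatment alters gene expression in a cystic kidney. Whole tissue of the left kidney, frozen before the animal was perfused, gave the RNA that was sequenced in 22 male PKD/Mhm (Cy/+) rats 8 months of age. All 22 were heterozygous for a missense mutation of Anks6 that gives a slowly growing polycystic kidney, and no rat without cysts was among them. The Control group held 6 untreated rats. The i.p. ASC group held 6 rats given human adipose-derived stromal cells (ASC) into the peritoneal cavity, and the i.v. ASC group held 6 rats given the same cells into a vein. The ASC-derived CM group held 4 rats given medium conditioned by these cells, whose route the sources give differently. Treatment was given monthly over 6 months. Total estimated counts ran from 12195682 to 14734772 per rat and overlapped between the 4 groups. Rats are named by group, with their order in the group and, where it matters, the animal number of the label.

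Endothelial cells line the capillaries around the tubules, the fenestrated loops of the glomerulus, the straight vessels of the medulla and the arteries and veins of the kidney. They are kept by vascular endothelial growth factor (VEGF), which podocytes and tubule cells release and which the receptors Kdr and Flt1 bind, and by the angiopoietins, which act on the receptor Tek with its partner Tie1. Pecam1 and Cdh5 hold endothelial cells together, Emcn and Plvap mark capillary and fenestrated endothelium, Aplnr is the receptor of apelin, and Vwf is the clotting protein that endothelial cells store for release.

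Promoter sequences of the 3 receptor tyrosine kinases of the list with an entry in the RefSeq promoter table are shown, because these genes varied together over the rats. The table (assembly GRCr8) held 5 of the 10 genes, Kdr, Flt1, Tie1, Emcn and Plvap, and the window is the 250 bases before the gene's start. Capitals mark the letters AGGAAG or, on the other strand, CTTCCT, a form of the sites bound by ETS factors such as Erg and Fli1. Other forms of these sites were not searched for. The windows are chr14:32571813-32572062 on the plus strand for Kdr, chr12:12333180-12333429 on the plus strand for Flt1 and chr5:137304982-137305231 on the minus strand for Tie1.
Kdr: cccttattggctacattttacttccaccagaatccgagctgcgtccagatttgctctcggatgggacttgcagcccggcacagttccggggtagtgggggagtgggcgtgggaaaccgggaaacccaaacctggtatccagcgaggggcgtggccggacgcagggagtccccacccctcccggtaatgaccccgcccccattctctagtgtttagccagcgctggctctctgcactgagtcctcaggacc
Flt1: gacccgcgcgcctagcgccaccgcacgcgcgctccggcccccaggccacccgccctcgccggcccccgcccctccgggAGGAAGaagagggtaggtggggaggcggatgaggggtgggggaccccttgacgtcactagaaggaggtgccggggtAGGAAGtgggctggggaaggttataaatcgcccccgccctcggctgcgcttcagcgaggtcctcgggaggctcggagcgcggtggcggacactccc
Tie1: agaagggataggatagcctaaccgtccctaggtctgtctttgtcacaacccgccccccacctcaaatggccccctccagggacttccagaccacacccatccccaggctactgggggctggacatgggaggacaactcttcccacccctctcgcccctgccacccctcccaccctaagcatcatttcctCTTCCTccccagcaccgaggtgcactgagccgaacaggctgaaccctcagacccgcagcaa
The ETS letters were in the windows of 4 of the 5 genes and in 29.5% of the 33469 promoters of the table. Flt1 held them 172 and 96 bases before the start, Tie1 held them 61 bases before it, and Emcn and Plvap each held 2 copies. Kdr held no copy of AGGAAG or CTTCCT in this window, where other ETS forms were not searched for. It had TAAACA (or TGTTTA on the other strand), the forkhead letters, 42 bases before the start. The forkhead letters were in 2 of the 5 windows and in 12.1% of all promoters. GATAA, the GATA letters, read on both strands, were in 2 of the 5 windows (Emcn and Plvap) and in 23.5% of all promoters. TATAAA, read on both strands, was in 2 of the 5 (Flt1 and Plvap) and in 12.9%, and in Plvap its copy overlapped that of the forkhead letters. These matches are descriptions of letters in a window and were not set against the measured levels.

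The level of each gene was read as TPM, a scale that is divided by transcript length and by the total so that genes can be compared within a rat. Over the 22 rats the fenestra protein Plvap was the highest of the 10 at 75.5 ± 25.6 TPM (SD, n = 22 here and in this paragraph). The sialomucin Emcn followed at 68.2 ± 25.2 TPM, and the adhesion molecule Pecam1 at 64.9 ± 17.8 TPM. These 3 did not differ beyond their spread, since Plvap exceeded Emcn in 14 of 22 rats and Emcn exceeded Pecam1 in 12 of 22. Pecam1 exceeded Tie1 (37.0 ± 10.6 TPM) in 22 of 22 rats, and Tie1 exceeded Tek (17.9 ± 6.402 TPM) in 22 of 22. The junction cadherin Cdh5 (16.3 ± 6.397 TPM) and the VEGF receptors Kdr (16.05 ± 7.38 TPM) and Flt1 (15.4 ± 5.36 TPM) lay within each other's spread. Aplnr had 11.02 ± 3.25 TPM and was below Flt1 in 20 of 22 rats. Vwf was the lowest at 2.31 ± 1.30 TPM, from 107 to 658 estimated counts per rat, and was below Aplnr in 21 of 22 rats.

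**Figure D1:**
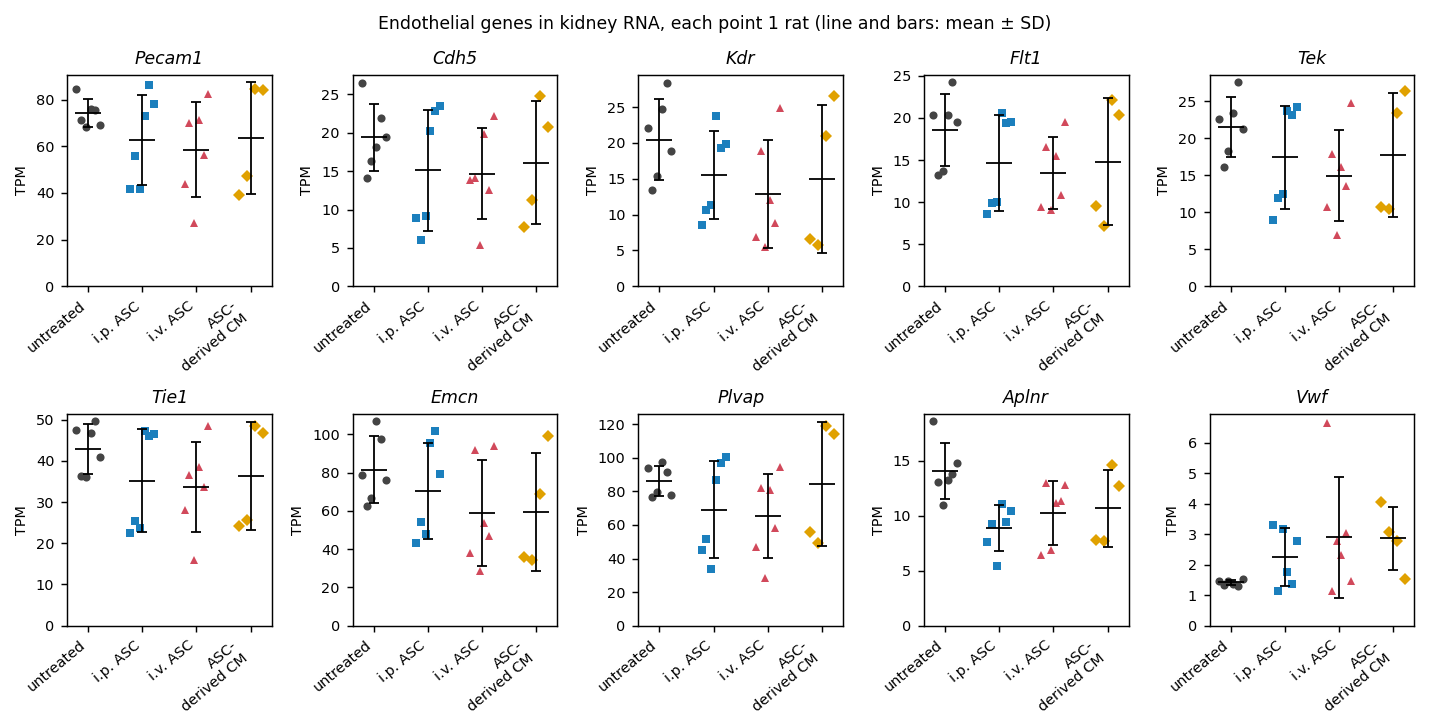
TPM of the 10 genes in each of the 22 rats (1 point a rat), with the mean (long line) and SD (bars) of each group. The Control rats lay close together for Pecam1, Plvap and Vwf, while the treated groups of 9 genes (all but Vwf) had rats near the untreated level and rats well below it.

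Differences between groups were fitted over all 12867 genes with edgeR's quasi-likelihood test, adjusted by Benjamini-Hochberg, and a gene was called at an adjusted p below 0.05. None of the 10 genes was called in any comparison, and neither was any other gene (0.0% called in each). At an unadjusted p below 0.05 edgeR gave 500 genes (3.89%) in i.p. ASC against Control, 1133 (8.81%) in i.v. ASC against Control, 849 (6.6%) in ASC-derived CM against Control and 281 (2.18%) in i.v. ASC against i.p. ASC. Of the 10 genes these held Aplnr in the first, Vwf in the second, Vwf in the third and none in the last. Aplnr was lower in i.p. ASC, as 2.14% of all genes were at that p, while 1.75% were higher. Vwf was higher in i.v. ASC, as 3.81% of all genes were, while 5.0% were lower, and it was higher in ASC-derived CM, as 2.84% were, while 3.75% were lower. Between the routes 1.64% of all genes were higher in i.v. ASC and 0.544% lower, with none of the 10. DESeq2 called 0 genes (0.0%), 22 (0.171%), 5 (0.0389%) and 21 (0.163%) in the same order, none of them among the 10. On simulated data DESeq2 made more false calls than that threshold allows. The 3 comparisons with Control share the same 6 untreated rats, so they are not independent of one another.

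The fitted log2 fold changes of 9 of the 10 genes were below 0 in i.p. ASC (53.8% of all genes), 9 of 10 in i.v. ASC (52.5%) and 8 of 10 in ASC-derived CM (50.9%), in each case against Control. The median log2 fold change of the 10 genes was -0.24 in i.p. ASC, -0.33 in i.v. ASC and -0.23 in ASC-derived CM, where the median of all genes lay at -0.01, -0.01 and -0.0029. Because these contrasts had a part in choosing the genes, nothing is read from the counts or the medians. The smallest adjusted p of the 10 genes was 0.771 in i.p. ASC, 0.523 in i.v. ASC and 0.711 in ASC-derived CM (edgeR). Between the routes, i.v. ASC against i.p. ASC, 8 of 10 folds were below 0 (54.1% of all genes), the median was -0.06 against -0.0089 for all genes, and every adjusted p was 1.0. In a bulk sample fewer endothelial cells and less RNA per endothelial cell cannot be told apart.

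The adhesion genes showed the pattern that most of the list shared. Pecam1 ran from 68.3 to 84.6 TPM (median 73.5) in the 6 Control rats, from 41.7 to 86.4 (median 64.3) in i.p. ASC and from 27.0 to 82.6 (median 63.2) in i.v. ASC. The 4 ASC-derived CM rats had 39.0, 47.2, 84.4 and 84.2 TPM. Every treated group thus overlapped the Control group, with 3 of 6, 3 of 6 and 2 of 4 rats below every Control rat. The fitted log2 fold changes against Control were -0.17 (SE 0.21), -0.25 (SE 0.21) and -0.18 (SE 0.23). Cdh5 ran from 14.1 to 26.5 TPM (median 18.8) in Control, from 6.01 to 23.6 (median 14.7) in i.p. ASC, from 5.4 to 22.2 (median 13.995) in i.v. ASC, and had 7.70, 11.3, 24.8 and 20.8 in ASC-derived CM. The low rats of Cdh5 again numbered 3, 3 and 2, and its log2 fold changes were -0.30 (SE 0.31), -0.31 (SE 0.31) and -0.23 (SE 0.35).

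Of the VEGF receptors, Kdr varied more than both adhesion genes, while Flt1 varied less than Cdh5. Over the 22 rats the highest was 3.38 times the lowest for Flt1, 4.92 times for Cdh5 and 3.21 times for Pecam1. Kdr, the main signalling receptor of VEGF, ran from 13.4 to 28.3 TPM (median 20.4) in Control, from 8.55 to 23.8 (median 15.3) in i.p. ASC and from 5.50 to 24.9 (median 10.5) in i.v. ASC. In ASC-derived CM it had 6.58, 5.81, 20.9 and 26.5 TPM, so that 2 rats were far below and 2 within the Control range. Its highest rat was 5.15 times its lowest over the 22 rats. The log2 fold changes of Kdr were -0.31 (SE 0.35), -0.58 (SE 0.35) and -0.41 (SE 0.40), with adjusted p-values of 0.833, 0.537 and 0.877 (edgeR). Flt1, which binds VEGF tightly and signals weakly, ran from 13.3 to 24.3 TPM (median 19.9) in Control, from 8.62 to 20.6 (median 14.7) in i.p. ASC and from 9.08 to 19.5 (median 13.1) in i.v. ASC, with 9.59, 7.19, 22.1 and 20.4 in ASC-derived CM. Its log2 fold changes were -0.25 (SE 0.25), -0.35 (SE 0.25) and -0.28 (SE 0.28).

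The angiopoietin receptor Tek ran from 16.1 to 27.6 TPM (median 21.9) in Control, from 8.98 to 24.2 (median 17.9) in i.p. ASC, and from 6.90 to 24.8 (median 14.8) in i.v. ASC, with 10.8, 10.4, 23.5 and 26.5 in ASC-derived CM. Its log2 fold changes were -0.23 (SE 0.26), -0.43 (SE 0.26) and -0.23 (SE 0.29). Tie1, which has no ligand of its own that binds it tightly, ran from 36.0 to 49.7 TPM (median 43.8) in Control, from 22.4 to 47.2 (median 35.7) in i.p. ASC, and from 16.01 to 48.6 (median 35.1) in i.v. ASC, with 24.2, 25.7, 48.5 and 46.7 in ASC-derived CM. All treated groups of both genes overlapped Control, and the folds of Tie1 were smaller, at -0.21 (SE 0.20), -0.26 (SE 0.20) and -0.19 (SE 0.23) on the log2 scale.

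The capillary genes Emcn and Plvap differed from each other in the ASC-derived CM rats. Emcn ran from 62.4 to 106.8 TPM (median 77.5) in Control, from 43.3 to 101.5 (median 66.7) in i.p. ASC and from 28.5 to 94.0 (median 50.2) in i.v. ASC, with 36.0, 34.1, 68.7 and 99.0 in ASC-derived CM. Plvap ran from 76.8 to 97.4 TPM (median 85.6) in Control, from 33.7 to 100.8 (median 69.3) in i.p. ASC and from 28.4 to 94.7 (median 69.6) in i.v. ASC, with 55.8, 49.3, 118.8 and 114.2 in ASC-derived CM. Of the 4 ASC-derived CM rats, 2 were below and 2 were above every Control rat for Plvap, and its log2 fold change was 0.0089 (SE 0.29), while that of Emcn was -0.42 (SE 0.30). Leaving out any one rat moved the Plvap fold between -0.15 and 0.19. The difference between these 2 genes was not tested. The i.p. and i.v. ASC folds were -0.15 (SE 0.27) and -0.36 (SE 0.27) for Emcn and -0.25 (SE 0.26) and -0.31 (SE 0.26) for Plvap.

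Aplnr was the one gene of the 10 whose rats did not overlap between i.p. ASC and Control on the log2 CPM scale, CPM being counts scaled to library size (0.124% of all genes were lower without overlap and 0.0155% higher). No gene of the 10 was without overlap in i.v. ASC against Control (0.0233% of all genes higher, 0.155% lower), in ASC-derived CM against Control (0.435% higher, 0.987% lower) or in i.v. ASC against i.p. ASC (0.0466% higher, 0.00777% lower). On the TPM scale it ran from 11.03 to 18.6 (median 13.6) in Control, from 5.44 to 11.1 (median 9.34) in i.p. ASC and from 6.41 to 13.04 (median 11.3) in i.v. ASC, with 7.80, 7.67, 14.6 and 12.7 in ASC-derived CM. On that scale the highest i.p. ASC rat, at 11.10 TPM, lay just above the lowest Control rat, at 11.03 TPM, so that 5 of 6 rather than 6 of 6 rats were below. The log2 fold changes of Aplnr were -0.58 (SE 0.18), -0.35 (SE 0.18) and -0.35 (SE 0.20). The first had an unadjusted p of 0.0036 and an adjusted p of 0.771 (edgeR), and leaving out any one rat moved it between -0.62 and -0.47.

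Vwf had fitted folds above 0 in all 3 treated groups, where those of the other 9 genes were below 0 except Plvap in ASC-derived CM (0.0089). It ran from 1.31 to 1.55 TPM (median 1.42) in the 6 Control rats, from 1.14 to 3.30 (median 2.27) in i.p. ASC and from 1.14 to 6.67 (median 2.54) in i.v. ASC. The ASC-derived CM rats had 4.06, 3.08, 2.77 and 1.54 TPM. The Control rats were tight, with a coefficient of variation of 6.48%, and 4 of 6 i.p. ASC, 4 of 6 i.v. ASC and 3 of 4 ASC-derived CM rats were above every one of them, while 1 i.p. ASC and 1 i.v. ASC rat were below. The log2 fold changes were 0.75 (SE 0.37), 1.18 (SE 0.37) and 1.10 (SE 0.40), with unadjusted p-values of 0.056, 0.0046 and 0.013 and adjusted p-values of 0.771, 0.523 and 0.711 (edgeR). Without i.v. ASC rat 1, at 6.67 TPM, the i.v. ASC fold was 0.69, and the fold between the routes, 0.43 with all rats, was -0.07. Vwf is spliced from a long transcript, and its length relative to other genes, read from the ratio of counts to TPM, was at percentile 99.0, with Flt1 at 96.8, Kdr at 95.2 and Emcn at 23.1.

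**Figure D2:**
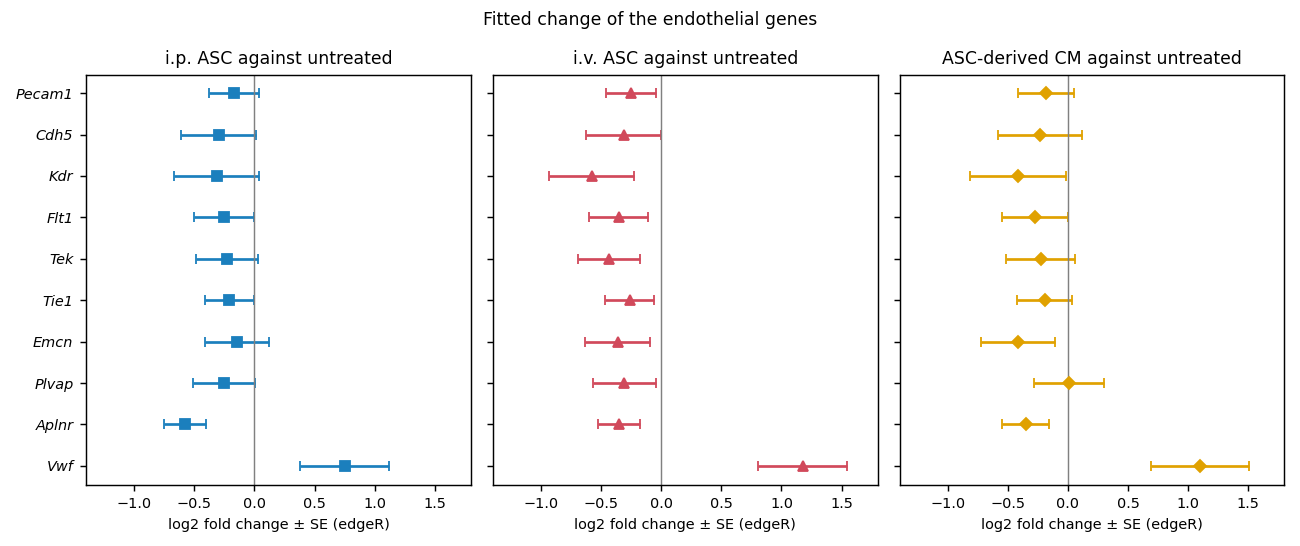
Fitted log2 fold change (edgeR, all 22 rats in one fit) of each gene in i.p. ASC, i.v. ASC and ASC-derived CM against Control, with bars of 1 SE. The 9 genes other than Vwf lie between -0.58 and 0.0089, with Plvap in ASC-derived CM the one point above 0, and Vwf lies between 0.75 and 1.18.

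The spread of the 10 genes was larger in the treated groups than in Control. The SD of log2 CPM over the 22 rats was 0.38 to 0.73 for the 10 genes, at percentiles 72.5 to 94.4 of all genes tested, and its median was 0.49 against 0.23 for all genes. Within groups the median SD of the 10 genes was 0.20 in Control, 0.51 in i.p. ASC, 0.56 in i.v. ASC and 0.62 in ASC-derived CM, while the median of all genes was 0.17, 0.23, 0.23 and 0.22. All 10 genes had a larger SD than in Control in each treated group, which held for 70.4%, 73.8% and 65.5% of all genes. The widest was Kdr in ASC-derived CM, with an SD of 1.02 against 0.33 in Control. Slc34a1, in contrast, had SDs of 0.80 in Control, 0.88 in i.p. ASC, 0.74 in i.v. ASC and 0.45 in ASC-derived CM. The differences in spread were not tested.

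Over the 22 rats 9 of the 10 genes varied together, and Vwf ran against them. Vwf was listed as an endothelial gene, and which cells gave its RNA here was not tested. Among the 36 pairs of the 9 genes Pearson's r of log2 CPM was 0.58 (Cdh5 with Aplnr) to 0.97 (Kdr with Emcn), with a median of 0.85. Vwf had an r of -0.80 (with Emcn) to -0.42 (with Cdh5), with a median of -0.71. In each of the 22 rats the genes were read from the same library and tissue, so no p is given. With each value centred on its group mean the medians were 0.86 and -0.68. Within the 6 Control rats alone the median r among the 9 genes was 0.59, with 34 of 36 pairs above 0, and Vwf had a median of -0.45 with the 9 and 1 of 9 pairs above 0. Within the 6 i.p. ASC rats the medians were 0.90 and -0.51, and within the 6 i.v. ASC rats they were 0.88 and -0.72.

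**Figure D3:**
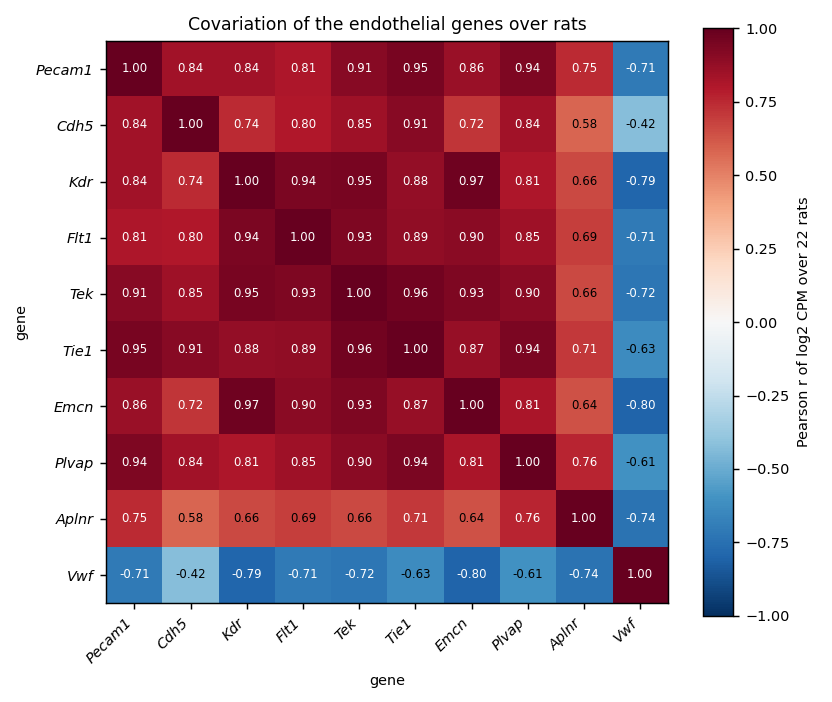
Pearson's r of log2 CPM over 22 rats for each pair of the 10 genes, as colour and number. The 9 genes other than Vwf form a block from 0.58 to 0.97, and the Vwf row and column run from -0.80 to -0.42.

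For the genes other than Aplnr and Vwf, some rats of each treated group held the low values while others lay in or above the Control range. All 9 genes were below every Control rat in 3 of 6 i.p. ASC rats (animals 5, 6 and 7), 2 of 6 i.v. ASC rats (animals 3 and 9) and 2 of 4 ASC-derived CM rats (animals 2 and 11). In i.v. ASC rat 5 (animal 13) this held for 8 of the 9 genes, and in i.v. ASC rat 4 (animal 10) for 3. The remaining treated rats, animals 8, 14, 15, 16, 17, 19 and 21, had at most 1 of the 9 genes below every Control rat. Vwf was above every Control rat in 7 of the 8 rats with 8 or 9 low genes, all but i.p. ASC rat 2 (animal 6), and also in animals 10, 15, 17 and 19. On the mean z score of the 9 genes, each gene scaled to mean 0 and SD 1 over the rats, those 8 rats lay from -1.99 to -0.54 and the other 14 from 0.16 to 1.03.

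The 7 rats with all 9 genes low had animal numbers from 2 to 11. The split of animal numbers at 12 was chosen after the values were seen. Among numbers 1 to 12, the median log2 ratio of mean TPM to Control over the 10 genes was -0.81 in i.p. ASC (3 rats against 2 Control rats), -0.54 in i.v. ASC (4 against 2) and -0.94 in ASC-derived CM (2 against 2). Among numbers 13 to 24 it was 0.09 in i.p. ASC (3 rats against 4), -0.16 in i.v. ASC (2 against 4) and 0.14 in ASC-derived CM (2 against 4). Among the lower numbers all 9 genes other than Vwf lay below Control in each treated group. Among the higher numbers 2 did so in i.p. ASC (Aplnr at -0.36 and Kdr at -0.06), 9 in i.v. ASC and 1 in ASC-derived CM (Emcn at -0.05). Vwf was above Control in both ranges of numbers and in all 3 treated groups, at 0.85 and 0.47 in i.p. ASC, 1.20 and 0.66 in i.v. ASC and 1.35 and 0.60 in ASC-derived CM. Of the 2 Control rats with numbers up to 12, animal 1 had a mean z score of 0.94, the highest of the 6 Control rats, and animal 12 had 0.26. Animal 12 was the lowest Control rat for 6 of the 9 genes (Cdh5, Kdr, Flt1, Tek, Emcn and Plvap). What the animal number stands for is not stated in the labels, and its part in the result was not tested beyond a fit with animal number as a covariate. In that fit the median log2 fold changes were -0.12 in i.p. ASC, -0.13 in i.v. ASC and -0.21 in ASC-derived CM.

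**Figure D4:**
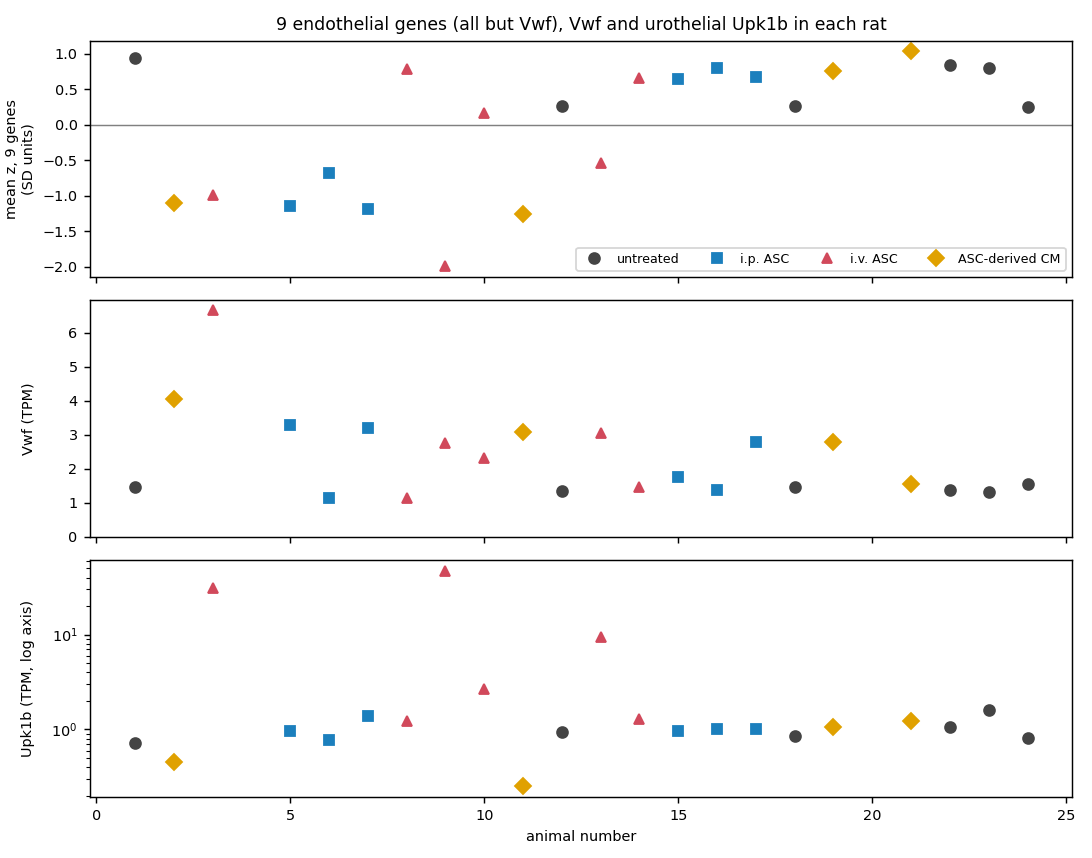
Each of the 22 rats by animal number, with the mean z score of the 9 genes other than Vwf, TPM of Vwf and TPM of the urothelial gene Upk1b (log axis). Mean z scores below 0 occur at animal numbers 2 to 13 only, in 8 treated rats, and Upk1b is above 5 TPM in 3 i.v. ASC rats, animals 3, 9 and 13.

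Markers of some other kidney cell types moved with the 9 genes. The podocyte list (Nphs1, Wt1 and Synpo), the cells that clothe the glomerular capillaries, had an r of 0.84 with the mean z score of the 9 genes and -0.81 with Vwf over the 22 rats. Its mean log2 CPM ran from 5.01 to 6.00 in Control, 4.78 to 5.76 in i.p. ASC, 3.82 to 5.69 in i.v. ASC and 3.51 to 6.03 in ASC-derived CM. All 3 podocyte genes had log2 fold changes below 0 in each treated group, none called by edgeR. The mural list (Pdgfrb, Rgs5, Cspg4, Acta2, Myh11 and Des), of the cells around the vessels, had an r of 0.87 with the 9 genes and -0.44 with Vwf. The leukocyte list had an r of 0.55 with the 9 genes and -0.78 with Vwf. The fibroblast list (Col1a1, Col1a2, Dcn, Lum and Pdgfra) had an r of 0.51 with the 9 genes and -0.44 with Vwf. Its folds against Control went up, in 4 of 5 genes in i.p. ASC and in 5 of 5 in i.v. ASC and in ASC-derived CM, none called by edgeR. The lists of the thick ascending limb, the medulla (Akr1b1, Slc14a1 and Slc14a2) and the collecting duct ran the other way, with r of -0.66, -0.63 and -0.44. All were chosen after the values were seen, and the medulla list is not a list of a tubule segment. The proximal tubule list had -0.03. With Vwf the thick limb, medulla, collecting duct and proximal tubule lists had r of 0.71, 0.47, 0.14 and 0.24. The urothelium list had an r of -0.51 with the 9 genes and 0.52 with Vwf (Spearman's rho -0.25 and 0.18). Platelet and red cell lists, of blood left in the unperfused kidney, had r of -0.0007 and 0.10 with the 9 genes and -0.16 and -0.02 with Vwf. Only 1 of the 4 platelet genes in the files, Pf4, passed the filter, and Ppbp had a median of 0 TPM over the 22 rats. The part of these cell types in the result was not tested beyond fits with the podocyte list or Slc34a1 as a covariate, which are given below.

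Urothelial genes set apart 3 i.v. ASC libraries. Upk1b, a plaque protein of the urothelium that lines the renal pelvis, was 31.03 TPM in rat 1, 46.9 in rat 3 and 9.43 in rat 5 of that group, against 1.22 to 2.68 in the other 3 and at most 1.60 in every other rat. These were the 3 i.v. ASC rats with 8 or 9 low endothelial genes. All 5 urothelial genes had a log2 fold change above 0 in i.v. ASC against Control with a median of 5.14, and 4 of them were among the 22 genes called by DESeq2. Without the 3 rats, the median log2 fold change of the 10 endothelial genes in i.v. ASC against Control was 0.00316 rather than -0.33, and that of Vwf was 0.25 rather than 1.18. Against i.p. ASC the median without them was 0.22 rather than -0.06. Because these rats also held the low endothelial values of their group, leaving them out raises the median whatever their urothelial content. The low i.p. ASC and ASC-derived CM rats held at most 1.38 TPM of Upk1b. The part of urothelium in the low values was not tested beyond this omission and a fit with the urothelium list as a covariate. In that fit the median log2 fold change against Control was -0.28 in i.p. ASC, 0.06 in i.v. ASC and -0.28 in ASC-derived CM.

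The ligands and other receptors of these pathways were measured in the same rats. Of the VEGF ligands, Vegfa had 138 ± 48.2 TPM in Control, 115.0 ± 32.1 in i.p. ASC, 96.8 ± 21.8 in i.v. ASC (SD, n = 6 each) and 112 ± 37.4 in ASC-derived CM (n = 4), and its log2 fold changes were -0.18 (SE 0.20), -0.41 (SE 0.20) and -0.23 (SE 0.23). Vegfb, Vegfc, Vegfd and Pgf had means over the 22 rats of 67.2, 7.36, 4.30 and 3.83 TPM, and log2 fold changes between -0.40 (Vegfd) and 0.35 (Pgf), both in i.v. ASC. The lymphatic VEGF receptor Flt4 and the coreceptors Nrp1 and Nrp2 had folds below 0 in all 3 comparisons, from -0.46 (Flt4 in i.v. ASC) to -0.03 (Nrp1 in ASC-derived CM). Angpt1, the angiopoietin that activates Tek, had 9.25 ± 2.58 TPM in Control and 5.74 ± 2.39 in i.v. ASC (SD, n = 6 each), and its log2 folds were -0.45 (SE 0.27), -0.58 (SE 0.27) and -0.41 (SE 0.30). Angpt2, which competes with it, had folds of -0.30 (SE 0.34), -0.58 (SE 0.34) and -0.05 (SE 0.38). Angpt4 was low, at 0.79 TPM over all rats, with folds of 0.15, -0.16 and 0.48. The apelin gene Apln had 1.55 TPM and folds of -0.33, -0.18 and -0.14. F8, the clotting factor that Vwf carries in plasma, had 4.92 TPM and folds of -0.23, -0.39 and 0.0069, which lay opposite to Vwf in the 2 cell groups. None of these 13 genes was called by edgeR or DESeq2, and Angpt1 in i.v. ASC was the one with an unadjusted edgeR p below 0.05 (0.040, adjusted p 0.523).

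Ligand and receptor were compared over the rats in 5 pairs, which were chosen with earlier results of these data known. Pearson's r of log2 CPM over 22 rats was 0.70 for Vegfa with Kdr, 0.71 for Vegfa with Flt1, 0.87 for Angpt1 with Tek, 0.92 for Angpt2 with Tek and 0.57 for Apln with Aplnr. The two-sided permutation p-values, adjusted by Benjamini-Hochberg over the 5 pairs, were 0.00035, 0.00035, 2.5e-05, 2.5e-05 and 0.0061. The unadjusted p of both Tek pairs, 1e-05, is the smallest that 100000 permutations can give, and those of Vegfa with Kdr, Vegfa with Flt1 and Apln with Aplnr were 0.00028, 0.00024 and 0.0061. Spearman's rho was 0.68, 0.73, 0.85, 0.88 and 0.55 in the same order, with adjusted permutation p-values of 0.0007, 0.00043, 2.5e-05, 2.5e-05 and 0.0096. Without the 2 rats farthest from the median of the ligand, r was 0.65, 0.68, 0.83, 0.89 and 0.45, and with values centred on group means it was 0.65, 0.69, 0.85, 0.91 and 0.54. Many other genes followed the same receptors. Of the other 12865 genes, 6.75% had an r with Kdr at least as high as Vegfa had, 5.29% with Flt1 as high as Vegfa, 0.731% with Tek as high as Angpt1, 0.225% with Tek as high as Angpt2 and 12.5% with Aplnr as high as Apln. The podocyte list also varied with the 9 genes, at an r of 0.84. The p-values are therefore not specific to a ligand and its receptor. What these genes share over the rats was not tested. Within the 6 Control rats r was 0.68, 0.66, 0.54, 0.72 and 0.81. Within the 6 i.p. ASC rats it was 0.95, 0.89, 0.93, 0.92 and 0.03, and within the 6 i.v. ASC rats 0.31, 0.28, 0.80, 0.91 and 0.80, so that the apelin pair was weak in i.p. ASC and the VEGF pairs were weak in i.v. ASC. These differences between groups of 6 rats were not tested.

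Against Slc34a1, 9 of the 10 genes had a negative Pearson's r of TPM over the 22 rats, with a median of -0.24. Of all genes, 64.5% had a negative r, with a median of -0.15, so the sign of the 9 genes is read against a background that is itself mostly negative. The r was -0.49 for Aplnr and -0.42 for Pecam1, and between -0.28 and -0.18 for Tie1, Cdh5, Emcn, Plvap, Tek, Flt1 and Kdr. Vwf had an r of 0.62, a value above those of 91.9% of all genes. Spearman's rho was -0.40 for Aplnr, -0.38 for Pecam1 and 0.56 for Vwf. The rats with the most extreme Slc34a1 were i.v. ASC rat 1, at 1405 TPM, and i.p. ASC rat 1, at 1363 TPM, which are also 2 of the 7 rats with all 9 genes low. Without them r was -0.35 for Aplnr, -0.25 for Pecam1, -0.14 for Cdh5, between -0.11 and 0.04 for the other 6, and 0.46 for Vwf. The other 7 proximal tubule genes were also put in place of Slc34a1, as their mean log2 CPM against log2 CPM of each gene. On that scale r was between -0.17 (Aplnr) and 0.22 (Kdr) for all 10 genes, with 0.15 for Vwf. Genes and scale changed together here, so their parts cannot be told apart. Slc34a1 itself ran from 227 to 1156 TPM in Control, 323 to 1363 in i.p. ASC, 389 to 1405 in i.v. ASC and 658 to 1195 in ASC-derived CM.

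**Figure D5:**
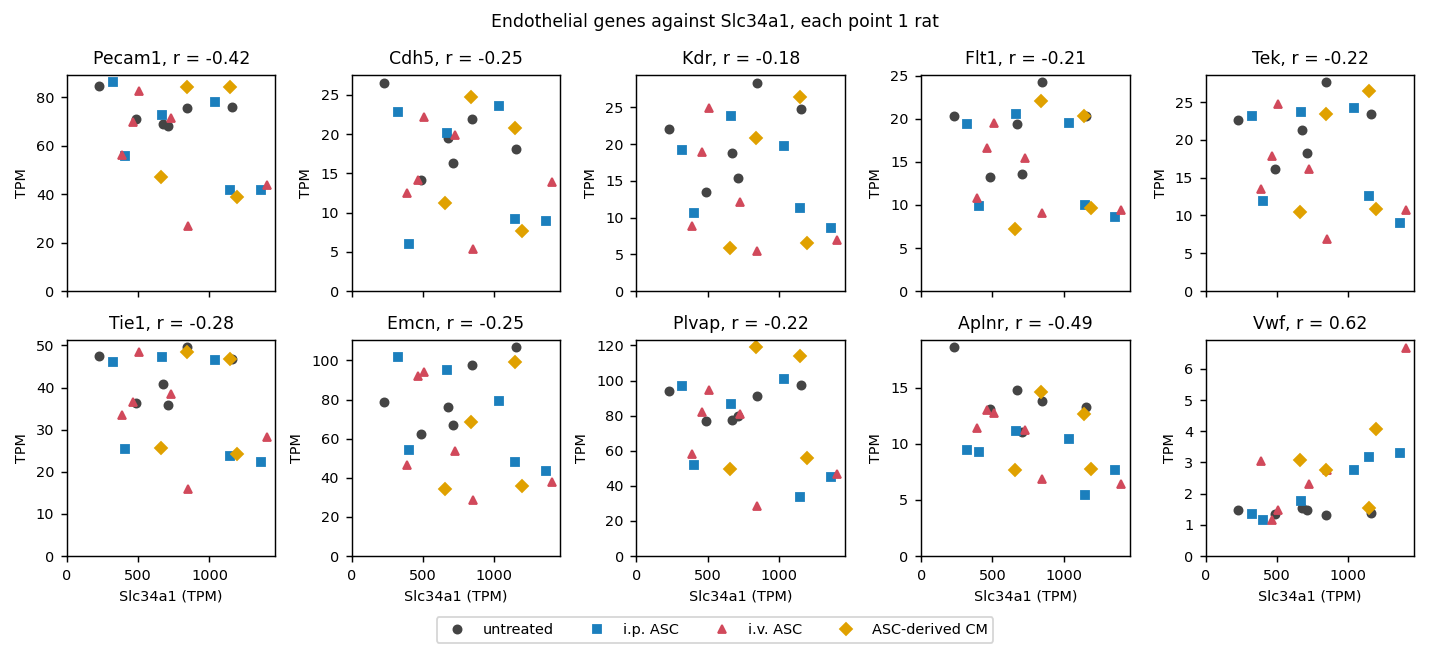
TPM of each of the 10 genes against TPM of Slc34a1, 1 point for each of the 22 rats, with Pearson's r above each panel. The 9 genes other than Vwf have r from -0.49 to -0.18, with low and high rats along much of the Slc34a1 axis, and Vwf has its highest value, 6.67 TPM, at the highest Slc34a1.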

How the data were processed

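The samples are kidneys of 22 male PKD/Mhm (Cy/+) rats, 6 Control, 6 i.p. ASC, 6 i.v. ASC and 4 ASC-derived CM, grouped by the treatment label. Rats given ABCB5+ cells or their medium, and other rats of the ASC-derived CM arm, were not analysed here. The authors sequenced total RNA on the BGISEQ-500 platform and deposited, for each rat Entrez gene, an estimated count without normalization and a TPM, which divides the count by transcript length and rescales it to a fixed total (959754 to 968550 per rat over the listed genes). The submitters' processing notes name Trim Galore 0.6.4, kallisto 0.4.6 and the build rn6 without their role, and the methods name DESeq2 and a human transcript package. How reads shared between similar, overlapping or antisense genes were split is not given in the sources used here, so genes with near-identical copies are uncertain.

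Estimated counts were rounded, since 14.1% were not whole. Symbols of 17179 of 17334 genes came from the RefSeq table of GRCr8, used for names only. edgeR 4.0.16 in R 4.3.3 (TMM, filterByExpr, quasi-likelihood test, 1 fit over the 4 groups, Benjamini-Hochberg, threshold 0.05) tested 12867 genes, and log2 CPM used a prior count of 2. Relative transcript length was the ratio of estimated counts to TPM, over values of at least 5 counts. The procedure was tested on simulated data, where DESeq2 made more false calls than the threshold of 0.05 allows. With totals of 12195682 to 14734772 counts per rat, the lowest Spearman correlation between rats was 0.97, and chi-square per gene between rats of a group was 7.51 to 147, so no library was a copy of another.

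The 10 genes and all lists were chosen with earlier results of these data known. The genes named were the 10, Slc34a1, every VEGF, angiopoietin, apelin and Vwf partner gene, of each other list the 3 with the highest mean TPM and any called by edgeR, and the 5 genes most like the 10. Beyond this rule, whole lists are spelled out where their mean is given, and Upk1b, Ppbp, Anks6 and the genes most like Vwf were named after their values were seen. The thick limb, collecting duct and medulla lists, the mean z score without Vwf, the ranges of animal numbers, the correlations within groups, the share of genes that follow each receptor, and 4 settings (animal number, podocyte list or urothelium list as a covariate, and omission of the i.v. ASC rats above 5 TPM of Upk1b) were chosen after the data were seen. Other settings tried were RLE scaling, no filter on low counts, DESeq2 1.42.0, only the 2 groups in the fit, limma-trend (limma 3.58.1) on log2(TPM + 1), Slc34a1 as a covariate and omission of each rat. Replicate order follows the accession and pairs nothing. Of the listed pathway and marker genes, Ptprb, Svep1, Apela, Adamts13, Mmrn2, Ecscr, Ephb4, Ackr1, Cd79a, Itga2b and Hba1 were not used here, and 1 further marker gene is not reported here.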

Additional observations from a re-analysis of the deposited data

Results flagged for a closer look

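Vwf in i.v. ASC rat 1 (animal 3) was 6.67 TPM, while the other 5 rats of that group had 1.14 to 3.04 TPM. The gap to the nearest rat was 0.657 of the whole range of the group, which is more than Dixon's criterion allows for 6 samples. This was the one value that stood out among 40 groups checked (10 genes in 4 groups), of which chance sets apart about 1 in 20. The same rat had the highest Slc34a1 of the 22, 1405 TPM, and 31.03 TPM of Upk1b.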

How the results depend on the processing

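None of the 10 genes was called under any of the alternatives run. The number of genes called in all was 0 with edgeR in each comparison, and became 22 in i.v. ASC against Control, 5 in ASC-derived CM against Control and 21 in i.v. ASC against i.p. ASC with DESeq2, and 1 in ASC-derived CM against Control with only these 2 groups in the fit. Leaving out 1 rat gave 0 to 14 genes in i.v. ASC against Control, with 11 without i.v. ASC rat 2 and 14 without rat 6, and 0 to 13 in i.v. ASC against i.p. ASC, with 13 without either of those rats. The median log2 fold change of the 10 genes ran from -0.34 to -0.13 in i.p. ASC, -0.44 to -0.19 in i.v. ASC and -0.41 to -0.08 in ASC-derived CM when 1 rat was left out. In i.v. ASC against i.p. ASC it ran from -0.17 to 0.07, being above 0 without i.v. ASC rat 3 (0.07) or i.p. ASC rats 4, 5 or 6 (0.00235, 0.03 and 0.00175). With the podocyte list as a covariate the median was -0.07 in i.p. ASC, 0.08 in i.v. ASC, 0.11 in ASC-derived CM and 0.14 between the routes, and with the urothelium list it was 0.06 in i.v. ASC and 0.29 between the routes. With Slc34a1 as a covariate the median in ASC-derived CM was -0.0859, and with limma-trend on log2(TPM + 1) it was -0.37 in i.p. ASC, -0.46 in i.v. ASC and -0.36 in ASC-derived CM. With the podocyte list, 8 of 10 genes in i.v. ASC and 7 of 10 in ASC-derived CM changed the sign of their fold. Vwf kept a fold above 0 against Control under all alternatives run, down to 0.09 in i.v. ASC with the urothelium list.

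The other proximal tubule genes in place of Slc34a1 were read as mean log2 CPM, against log2 CPM of each gene rather than TPM. There r was -0.0746 for Pecam1, 0.0640 for Cdh5, 0.22 for Kdr, 0.18 for Flt1, 0.10 for Tek, 0.0069 for Tie1, 0.15 for Emcn, 0.0484 for Plvap, -0.17 for Aplnr and 0.15 for Vwf. Without the 2 rats farthest in Slc34a1, r of TPM with Slc34a1 was 0.0185 for Tek and 0.46 for Vwf. The causes of these changes were not tested. All 5 ligand and receptor pairs kept an adjusted permutation p below 0.05 in the 20 alternatives. The alternatives reuse the same rats and pairs, which were chosen with earlier results known, so nothing further is read from these p-values. Of the other genes, 12.5% had an r with Aplnr at least as high as Apln had. No paired analysis was possible because no rat is in more than 1 group and the order of rats within a group only follows the accession. The SEs of the 10 genes against Control were 0.18 to 0.40 on the log2 scale, and the size of change that these groups could detect was not tested.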

Other observations

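Most other endothelial lists varied with the 9 genes other than Vwf, and opposite to Vwf. A list of 14 further endothelial genes, led by Eng (86.7 TPM), Ramp2 (62.4 TPM) and Egfl7 (55.1 TPM), had an r of 0.96 with the mean z score of the 9 genes other than Vwf over the 22 rats and -0.70 with Vwf, and none of its genes was called. The list of 11 endothelial transcription factors, led by Klf2 (69.0 TPM), Epas1 (52.0 TPM) and Ets1 (40.1 TPM), had an r of 0.92 with the 9 genes and -0.74 with Vwf. Lymphatic genes, led by the chemokine Ccl21 (1310 TPM), had an r of 0.92 with the 9 genes and -0.74 with Vwf, and r with the 9 genes was 0.85 for glomerular endothelial genes (Plat, Ehd3 and Gata5), 0.72 for adhesion molecules of activated endothelium and 0.70 for arterial genes (among them Gja4, Dll4 and Efnb2). The one vein gene tested, Nr2f2, was an exception, with an r of 0.11 with the 9 genes and 0.19 with Vwf. Of the 14 further endothelial genes, 13 had a fold below 0 in i.p. ASC (53.8% of all genes), 14 in i.v. ASC (52.5%) and 11 in ASC-derived CM (50.9%), against the same Control rats, with medians of -0.18, -0.21 and -0.14. The lists share libraries and were not chosen independently of these data.

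Outside the lists, the genes most like the mean z score of all 10 were Jam2 (r 0.98), Pde2a (0.96), Entpd1 (0.95), Dysf (0.94) and Uaca (0.94), over 22 rats. The genes most like Vwf were Thumpd1 (0.95), Pld1 (0.95), Cryab (0.93), Slc10a5 (0.93) and Abca4 (0.92).

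Among other measures of the libraries, the trend of expression with transcript length had an r of 0.59 with the 9 genes and -0.35 with Vwf, and total counts had -0.08 and 0.25.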
